A study of Mus musculus with 4 samples.

Results

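The 9 genes described here make, carry, break down or sense retinoic acid, and were chosen by name: Crabp1, Crabp2, Aldh1a1, Aldh1a2, Aldh1a3, Dhrs9, Cyp26b1, Rara and Rarg, out of 28034 distinct gene names on the array. Every probe that the scanner files assign to 1 of these genes was taken, 14 of 41174 probes in all. The tissue was dorsal skin through its full thickness, from males that were 42 days old, and the labels put it in telogen, when hair follicles rest. The mutant group, cKO below, was labelled as C57BL/6 with a conditional Fgf18 knockout in keratin 5-positive epithelial cells, and the control group, WT below, was C57BL/6, for which the labels give no Cre driver or floxed allele. In each group polyA RNA of 3 mice was pooled and run on 2 one-colour arrays, which are technical duplicates. Every standard deviation, standard error (SE) and p-value therefore covers variation between duplicates alone. Each test sets 1 RNA pool against another, and variation from mouse to mouse has no estimate.

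Retinol is carried by retinol-binding proteins, oxidised reversibly to retinal by retinol dehydrogenases such as Dhrs9, and then oxidised irreversibly to retinoic acid by the Aldh1a enzymes. Inside the cell retinoic acid is bound by Crabp1 and Crabp2, is oxidised by the Cyp26 enzymes, and acts through the nuclear receptors Rara, Rarb and Rarg, which bind DNA with retinoid X receptors. In skin this pathway is known for its effects on keratinocyte differentiation, sebaceous glands and the hair cycle.

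The labels place both pools in telogen, but the cKO pool held high signal of genes that form the hair shaft. Signals are given as a percentage, or a multiple, of the 75th percentile of the array's non-control spots, which was at 1403 and 1453 intensity units in cKO and at 1271 and 1316 in WT. Over all genes 5.64% were higher and 4.80% lower, by the threshold given below. All 15 measured genes of the hair shaft and inner root sheath, keratins and trichohyalin, were higher in cKO. Only 9 of them were well above background on all 4 arrays. The others, among them Krt26, Krt82 and Krt85, were so in cKO alone, where they are high, and count as measured only through that pool. The list had a summed signal of 338 and 336 times the 75th percentile on the cKO arrays, against 2.01 and 2.11 times on the WT arrays. Krt86, Krt34 and Krt25, which neither WT array put well above background, were at least 365-fold, 633-fold and 703.5-fold higher. Proliferation genes (9 of 10 higher, led by Ccnb1, Cdk1 and Foxm1) summed to 27.9 and 26.9 times in cKO, against 15.1 and 15.8 times in WT, and melanocyte genes (6 of 7 higher, among them Slc45a2 and Tyrp1) to 14.6 and 14.8 times in cKO, against 9.23 and 9.15 times in WT. The 6 include Oca2, which was well above background in cKO alone and has only a bound, at least 1.16-fold higher. Skeletal muscle genes (4 of 10 lower, led by Neb, Casq1 and Actn3) summed to 960 and 961 times in cKO, against 1278 and 1353 times in WT. Fgf18 itself had a log2 change of -0.33 (limma adjusted p = 0.0053), which was under the fold threshold used here, and Krt5 and Krt14, which mark the targeted epithelium, had -0.09 and 0.31. Whether these differences between the pools bear on the retinoic acid genes was not tested. In whole skin, fewer cells of a type and less RNA per cell cannot be told apart.

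**Figure D1:**
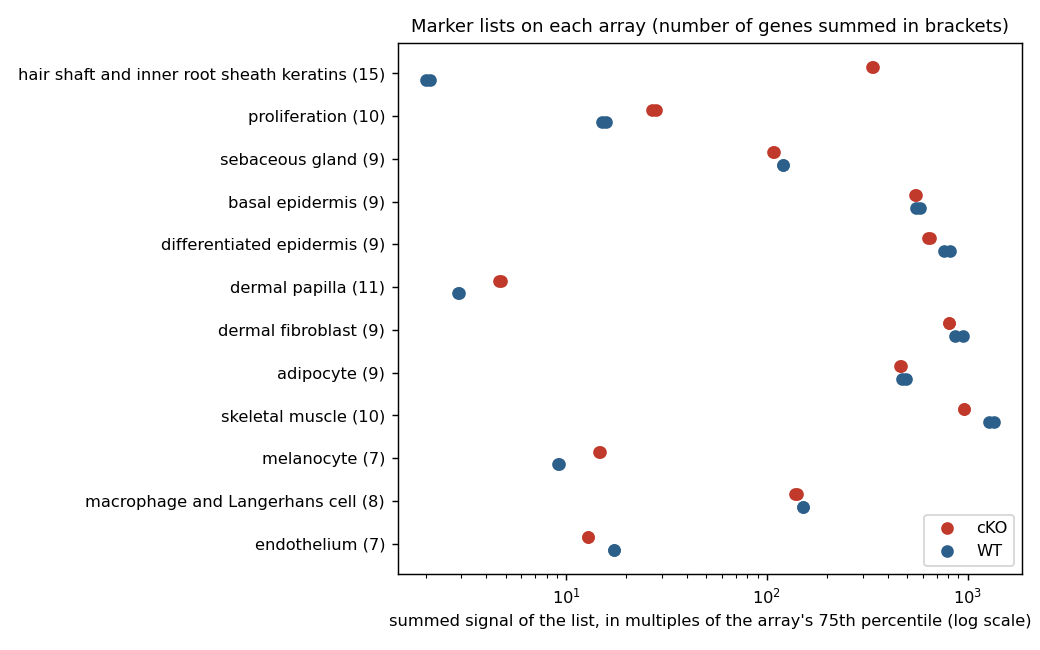
Summed signal of 12 marker lists on each array, in multiples of the array's 75th percentile on a log axis, with the cKO arrays in red above the WT arrays in blue and the number of genes summed in brackets. The hair shaft and inner root sheath list lies at 336 to 338 times in cKO, against 2.01 to 2.11 times in WT, and every other list differs far less.

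Crabp1 was lower in the cKO pool, while Aldh1a3 and Dhrs9 were higher and Crabp2, Aldh1a1, Aldh1a2, Cyp26b1 and Rarg did not pass the threshold for a call. To be called, a probe needed a 1.5-fold change or more and a limma adjusted p below 0.05, by Benjamini-Hochberg over the 26070 probes that stood well above background on both duplicates of either pool. Of the 14 probes 12 passed this filter, 11 of them on all 4 arrays. Of these 12 probes 3 were called higher and 1 lower, against 9.72% of all probes called (4.92% higher and 4.80% lower), and the arrays of the pools did not overlap for 10, against 79.8% of all probes. The 3 include Aldh1a3 probe 2, which passed the filter only through the cKO arrays, where it is high, so nothing is read from the share over probes. A gene is represented by its brightest probe that passed, which left Rara unmeasured. Among the 8 measured genes 2 were called higher and 1 lower. This is 37.5% called, against 10.4% of all 17555 genes (5.64% higher and 4.80% lower). The retinoic acid genes were chosen with earlier results of these data known, so nothing is read from this share either. The median log2 change was 0.036 over the 8 genes and -0.051 over all genes. At an adjusted p under 0.05 without a fold threshold the share was 5 of 8, against 52.9% of all genes, and the arrays of the pools did not overlap for 7 of 8, against 81.9% of all genes. These last counts lie near the background and say nothing about the retinoic acid genes.

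**Figure D2:**
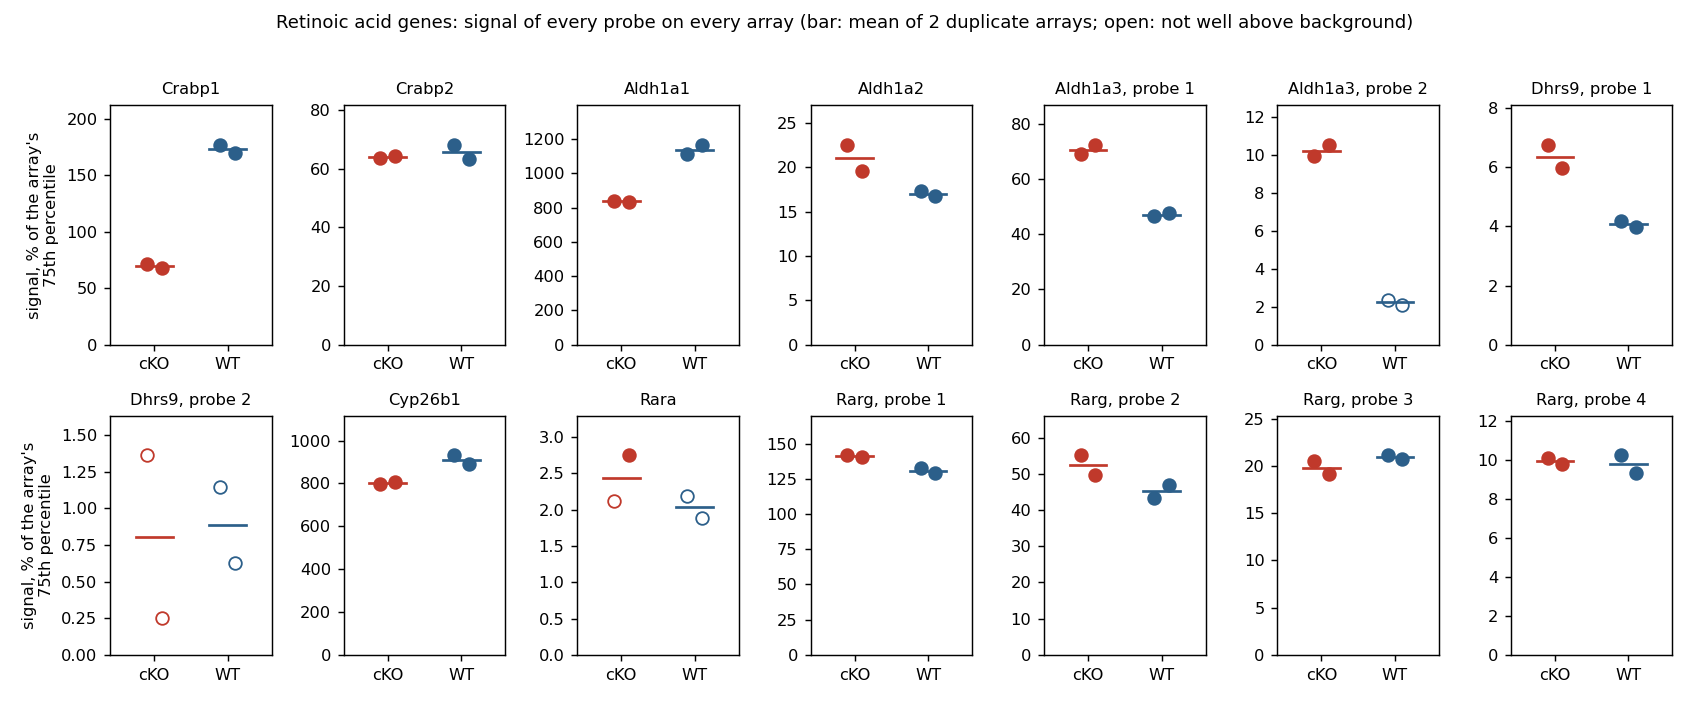
Signal of all 14 probes on each array, as a percentage of the array's 75th percentile, with cKO left of WT, each point 1 array, the bar the mean of 2 duplicate arrays and open points not well above background. Crabp1 lies at 67.4% to 71.6% in cKO, against 170% to 176% in WT, and the probes of Rara and Dhrs9 probe 2 are dim in both pools.

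Of the genes that were called, the probes of Aldh1a3 and the promoters of Crabp1 and Dhrs9 are shown first. Both Aldh1a3 probes lie on the minus strand of chromosome 7 on mm9, at 73535785 to 73535844 (probe 1, assigned to NM_053080) and at 73553907 to 73553966 (probe 2, assigned to the cDNA AK086764), and start 18.1 kb apart. Their first 30 of 60 bases, from the scanner files and 5′ to 3′, are given because the probes measured changes of different size:
Aldh1a3 probe 1: ggggattttgatcttaagttcagattgtgt
Aldh1a3 probe 2: actatttgcttctctttttctaaacctatt
No gene models of mm9 were used, so where a probe lies within its gene is not given.

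RefSeq windows of the 250 bases before a transcription start (GRCm38.p6) were matched by symbol for 7 of the 9 genes, 12 windows in all. None was matched for Crabp2 or for Aldh1a3, which was called higher. The windows of Crabp1, which was lower, and Dhrs9, which was higher, are printed 5′ to 3′ on the plus strand, with capitals for any of 5 motifs searched on both strands. These were the GC box motif GGGCGG, the TATA box motif TATAAA and the promoter element CCAAT. The hexamer AGGTCA, bound by retinoic acid receptors, was searched too, as was its variant AGTTCA in the same kind of element. The Crabp1 window is chr9:54764498-54764747 and that of Dhrs9 is chr2:69380212-69380461.
Crabp1: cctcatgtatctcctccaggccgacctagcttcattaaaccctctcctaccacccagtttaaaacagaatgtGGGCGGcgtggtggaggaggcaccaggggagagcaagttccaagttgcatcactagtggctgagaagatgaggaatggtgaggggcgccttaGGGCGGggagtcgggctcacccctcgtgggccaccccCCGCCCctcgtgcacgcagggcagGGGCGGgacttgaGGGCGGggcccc
Dhrs9: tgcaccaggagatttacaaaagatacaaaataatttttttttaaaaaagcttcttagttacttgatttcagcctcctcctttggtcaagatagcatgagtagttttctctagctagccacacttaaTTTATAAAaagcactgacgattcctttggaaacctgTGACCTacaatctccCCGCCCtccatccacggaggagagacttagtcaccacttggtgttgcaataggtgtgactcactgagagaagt
The Crabp1 window is 63.6% G and C and holds GGGCGG 5 times. Of 32536 mouse windows of this length 1.95% hold it at least 5 times and 33.0% hold it at all. Neither retinoic acid receptor hexamer occurs in it, nor does TATAAA. The Dhrs9 window is 40.4% G and C and holds AGGTCA once, as do 14.0% of all windows, and TATAAA on both strands, which overlap each other. TATAAA occurs in 12.3% of all windows. Of the 12 windows, 2 hold AGGTCA (Rarg and Dhrs9) and 1 holds AGTTCA (Rara), which 11.8% of all windows hold. None of the 12 holds AGGTCANAGGTCA, AGGTCANNAGGTCA or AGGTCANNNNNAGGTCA, the direct repeats, which at most 0.0338% of all windows hold. A match is a description of letters and shows no binding.

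Among the binding proteins, Crabp1 fell and Crabp2 was not called. Crabp1, a cytosolic retinoic acid-binding protein known in mouse skin from dermal papilla fibroblasts, had signals of 71.6% and 67.4% of the 75th percentile on the cKO arrays, against 176% and 170% on the WT arrays. Both cKO arrays lay well under both WT arrays: the nearest arrays of the pools were 1.25 apart on the log2 scale, against 0.087 between the cKO duplicates and 0.056 between the WT duplicates. On the scaled log2 axis cKO averaged -0.53 ± 0.062, against 0.79 ± 0.039 for WT (SD over n = 2 duplicate arrays). Crabp1 was thus 2.49-fold lower, with a log2 change of -1.32 and an SE of 0.047 (adjusted p = 0.00195 in limma). Of all genes, 2.71% had a larger absolute change and 0.535% were as low or lower. Its probe, assigned to NM_013496, lies on the plus strand of chromosome 9 from 54616192 to 54616251 on mm9. Of the dermal papilla markers none was called lower: 4 of 11 measured markers were called higher and 7 were not called, with a summed signal of 4.65 and 4.75 times the 75th percentile in cKO, against 2.93 and 2.91 times in WT. Only 7 of the 11 changes, called or not, were above 0, and the rest were below. Lef1, Nog and Wif1 were measured on all 4 arrays, whereas Hhip, the other marker called, was well above background in cKO alone and has only a bound, at least 2.19-fold higher. Sox2 and Rspo3 did not pass the filter. Of 9 dermal fibroblast markers 1 rose (Dpt) and 1 fell (Lum), and their summed signal was 804 and 806 times in cKO, against 865 and 945 times in WT. The part of these cells in the fall of Crabp1 was not tested.

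Crabp2, the partner that delivers retinoic acid to nuclear receptors, had signals of 63.7% and 64.4% in cKO, against 68.1% and 63.4% in WT. The cKO arrays lay between the WT arrays. Its log2 change was -0.04 (SE 0.048, limma adjusted p = 0.56), and 89.8% of genes had a larger absolute change.

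The genes whose values over the 4 arrays lay nearest to those of Crabp1, each gene taken as deviations from its own mean, were Ppp1r3c, Cyp2g1 and Tmem38b among 16628 candidates. Their Euclidean distances were 0.042, 0.053 and 0.055 log2 units, and their log2 changes were -1.31, -1.31 and -1.28. With only 2 pools, any gene that fell by a like amount lies near, so this likeness describes the size of the change.

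The enzymes of the last step, the Aldh1a retinal dehydrogenases, differed among themselves. Aldh1a3, known from epithelium of the hair follicle, had signals of 68.9% and 72.2% in cKO, against 46.4% and 47.6% in WT, by probe 1. Both cKO arrays were above both WT arrays. This is 1.501-fold higher, at the fold threshold (log2 change 0.59, SE 0.039, limma adjusted p = 0.0039). The call was lost under 6 of 14 alternatives, with log2 changes from 0.53 to 0.58, among them without cKO replicate 2 (0.55) and without WT replicate 1 (0.57). Probe 2 had signals of 9.96% and 10.5% in cKO, against 2.38% and 2.09% in WT, where neither array put it well above background. It passed the filter only through the cKO arrays. The change of probe 2 therefore has only a bound, at least 3.57-fold higher in cKO, which is the cKO mean against, per WT array, the higher of its own signal and the lowest signal well above background. The fit against these WT signals gave an adjusted p of 0.0021 in limma, which tests the fitted change and not the bound. Its fitted log2 change was 2.20 as reported and 1.04 with normexp background correction and quantile normalization, so the size of the gap to probe 1 is not settled. Which transcripts of Aldh1a3 the probes report was not tested.

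Aldh1a1, a cytosolic retinal dehydrogenase, had signals of 839% and 835% in cKO, against 1112% and 1164% in WT. Its arrays did not overlap, but at 1.36-fold lower the change stayed under the fold threshold (log2 -0.44, SE 0.0355, limma adjusted p = 0.0051). Aldh1a7, a close copy of Aldh1a1 in mouse, fell 1.57-fold, from a probe with 141% and 146% in cKO and 223% and 226% in WT. Probes of such near-identical genes may cross-hybridise, so these values are uncertain as measures of single genes. Aldh1a2, the main source of retinoic acid in the embryo, had signals of 22.5% and 19.5% in cKO, against 17.3% and 16.8% in WT. The cKO arrays were both higher but differed from each other by 0.203 on the log2 scale, more than the nearest arrays of the pools (0.176), and the log2 change was 0.30 (SE 0.084, limma adjusted p = 0.058).

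Dhrs9, a short-chain dehydrogenase that oxidises retinol, was slightly higher in cKO by its probe for the cDNA AK089247. Signals were 6.75% and 5.97% in cKO, against 4.17% and 3.98% in WT, all low but well above background. This is 1.56-fold higher (log2 change 0.64, SE 0.077, limma adjusted p = 0.010), and the nearest arrays of the pools were 0.517 apart, against up to 0.178 between duplicates. The call was lost without cKO replicate 1 (0.55) and with normexp and quantile normalization (0.28). The other Dhrs9 probe, for NM_175512, was not well above background on any array, with 1.36% and 0.255% in cKO, against 1.14% and 0.626% in WT, and has no interpretable change.

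**Figure D3:**
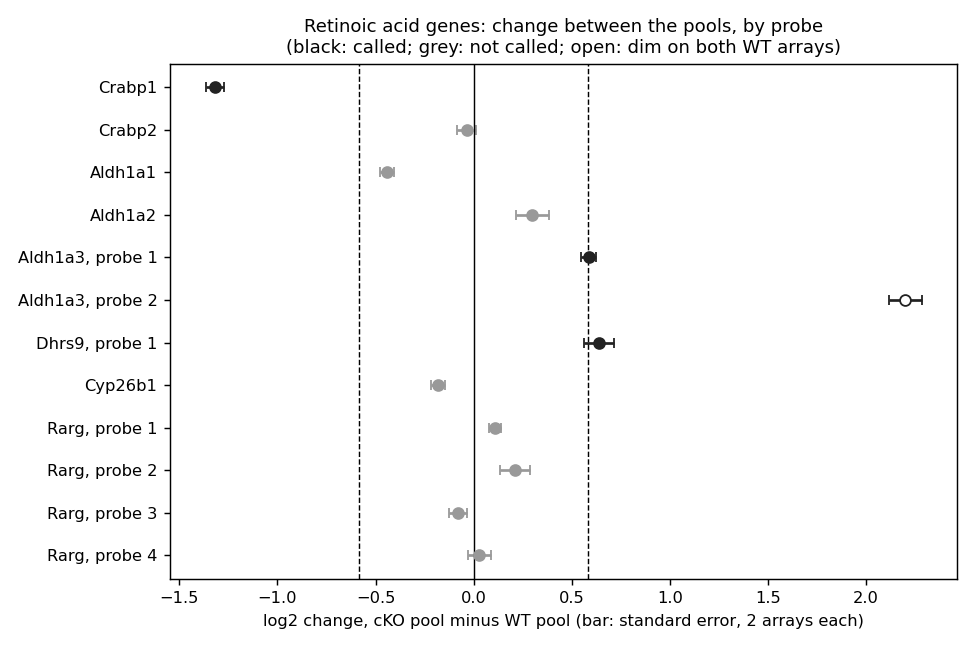
Log2 change (cKO minus WT) with its standard error for the 12 probes that passed the filter, ordered by role, with dashed lines at 1.5-fold. Crabp1 (-1.32) lies far left, Aldh1a3 probe 1 (0.59) and Dhrs9 (0.64) lie at or right of the upper line, and the other probes but Aldh1a3 probe 2 lie between the lines. The point of Aldh1a3 probe 2 is a fit against WT signals not above background, for which only the bound of 3.57-fold holds.

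Cyp26b1, which oxidises retinoic acid to inactive products, had signals of 798% and 808% in cKO, against 931% and 892% in WT. The pools did not overlap, yet cKO was only 1.14-fold lower (log2 -0.18, SE 0.035, limma adjusted p = 0.026), and 52.6% of genes had a larger absolute change. With quantile normalization the log2 change of Cyp26b1 was -0.077 (limma adjusted p = 0.15). With normexp and quantile normalization it was -0.097 (limma adjusted p = 0.11), so this small fall depended on the processing. Cyp26a1, its relative and a strong target of retinoic acid, was not well above background on any array, with 1.15% and 1.06% in cKO, against 0.547% and 0.639% in WT.

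Neither retinoic acid receptor among the 9 genes was called. Rarg, the receptor best known from keratinocytes, was read by 4 probes. Probe 1, which represents the gene, had 142% and 140% in cKO, against 133% and 129% in WT, or 0.11 on the log2 scale (SE 0.030, limma adjusted p = 0.0575). Probe 2, whose 60 bases span 2641 bases of chromosome 15 and so cross a splice junction, had 55.1% and 49.7% in cKO, against 43.4% and 47.0% in WT (log2 change 0.21, adjusted p = 0.098). Probes 3 and 4 are annotated in the files to the 5′ end of a retinoic acid receptor gamma 3 mRNA (M32070) and had log2 changes of -0.08 and 0.03 (adjusted p = 0.24 and 0.71). Probe 3 had 20.5% and 19.2% in cKO, against 21.1% and 20.8% in WT, and probe 4 had 10.1% and 9.81%, against 10.2% and 9.33%. The 4 log2 changes thus ran from -0.08 to 0.21. Rara, the most widely expressed of the receptors, gave no usable value: its only probe had 2.12% and 2.75% in cKO, against 2.19% and 1.88% in WT, and was well above background on 1 cKO array alone. No spot of the 9 genes was marked as an outlier, so no value was dropped.

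The rest of the retinoid pathway was described through 5 lists holding 68 genes besides the 9 above, of which 55 were measured, 3 rose, 6 fell and 46 were not called. This is 16.4% called, against 10.4% of all genes (5.64% higher and 4.80% lower), with a median log2 change of -0.06. The lists were chosen with earlier results of these data known, so nothing is read from this share or from the counts by list. Some genes stand in more than 1 list.

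Of 13 measured genes of retinol uptake, binding and esterification 2 rose and 1 fell, with a median log2 change of 0.07. Rbp7, a cellular retinol-binding protein, had 302% and 306% in cKO, against 108% and 108% in WT, which is 2.82-fold higher (log2 change 1.49, SE 0.025, adjusted p = 0.00079 in limma), and its other probe gave 1.54. Lrat, which esterifies retinol for storage, had 16.9% and 16.5% in cKO, against 8.55% and 8.93% in WT, and rose 1.91-fold. Stra6, the membrane receptor for retinol-binding protein, had 68.8% and 71.9% in cKO, against 101% and 114% in WT. It fell 1.52-fold, a call lost under 6 of 14 alternatives, among them without cKO replicate 1 (adjusted p = 0.069), without cKO replicate 2 (adjusted p = 0.060) and without WT replicate 2 (log2 change -0.52). Rbp4, the plasma carrier of retinol, and Lpl, a lipase, had log2 changes of 0.33 and -0.28 and were not called.

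Of 18 measured oxidoreductases of retinol and retinal none rose and 3 fell, with a median log2 change of -0.22. Sdr16c5, an epidermal retinol dehydrogenase, had 80.9% and 81.6% in cKO, against 155% and 150% in WT, and fell 1.88-fold (limma adjusted p = 0.0019). Rdh1, a retinol dehydrogenase, had 7.66% and 8.01%, against 13.6% and 13.6%, and fell 1.74-fold, a call lost with normexp and quantile normalization (log2 change -0.56). The other gene that fell was Aldh1a7, given above. Dhrs3, which reduces retinal back to retinol, and Dhrs7 had log2 changes of -0.02 and -0.53 and were not called. In the sebaceous gland list, whose cells are known for retinoid metabolism, 2 of 9 measured markers fell (Soat1 and Pparg) and 1 rose (Plin5), and the summed signal was 108 and 108 times in cKO, against 121 and 120 times in WT. The part of sebaceous cells in these falls was not tested.

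Among the remaining receptors and Fabp5, 1 of 5 measured genes fell and none rose. Rxrg, a retinoid X receptor also known from skeletal muscle, had 221% and 213% in cKO, against 403% and 411% in WT, and fell 1.88-fold (limma adjusted p = 0.0020). Skeletal muscle markers were lower too, with the sums given above, and their part in the fall of Rxrg was not tested. Rarb, a receptor that retinoic acid itself induces, had 24.9% and 26.2% in cKO, against 35.8% and 36.3% in WT, a log2 change of -0.50 that was not called. A spot of Rarb on cKO replicate 1 was left out as an outlier. Rxra and Rxrb, the other retinoid X receptors, had -0.08 and 0.22. All 10 receptor coregulators were measured and none was called, with 0.04 for the brightest probe of the corepressor Ncor1, whose 6 probes ran from -0.56 to 0.12.

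Of 16 measured genes that retinoic acid is known to induce in other settings, 2 rose and 2 fell, with a median log2 change of -0.13. Besides Lrat and Stra6, which are in this list too, Hbegf, an EGF receptor ligand, had 84.9% and 88.1% in cKO, against 52.0% and 54.7% in WT, and rose 1.62-fold. Tgm2, a transglutaminase, had 1171% and 1186%, against 1814% and 1834%, and fell 1.55-fold, a call lost with quantile normalization (log2 change -0.50) and with normexp and quantile normalization (-0.49). Rarres1 and Rarres2, named as retinoic acid receptor responders, had -0.19 and -0.44 and were not called. The list holds Crabp2 and Cyp26b1, described above. Calls in it ran both ways, while only 4 of its 16 changes, called or not, were above 0. The median over all genes was -0.051.

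**Figure D4:**
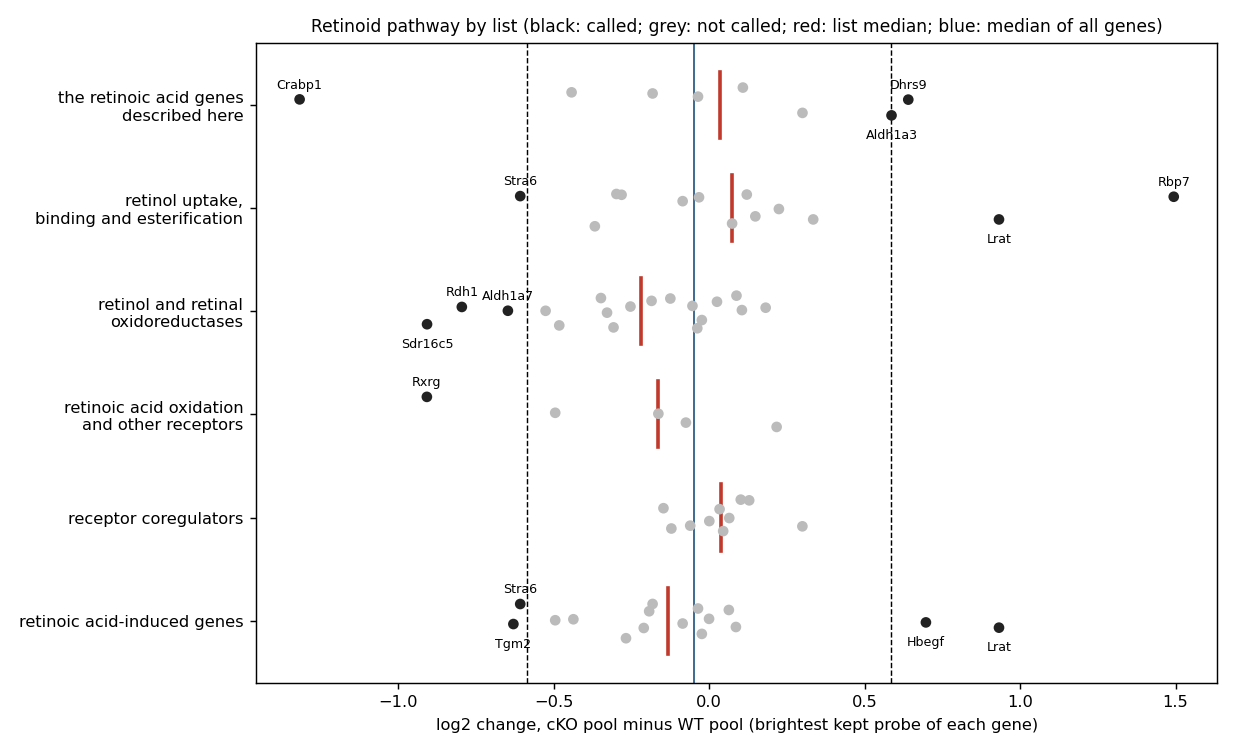
Log2 change (cKO minus WT) of each measured gene in 6 lists, by its brightest probe, with called genes in black and named, the list median in red, the median of all genes (-0.051) in blue and dashed lines at 1.5-fold. The coregulators all lie between the lines, and the called genes of the oxidoreductase list all lie on the lower side.

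Crabp1 kept its call across processing settings. Its log2 change lay between -1.36 and -1.27 under 14 alternatives, and it was called lower under each. Several alternatives, such as the other filters, outliers kept or a replicate block, leave the log2 change of Crabp1 as it was, and all rest on the same pools. The calls of Aldh1a3 probe 1 and Dhrs9 were lost as given above. Aldh1a3 probe 2 is not measured under the stricter filter, which asks for signal in both pools.

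**Figure D5:**
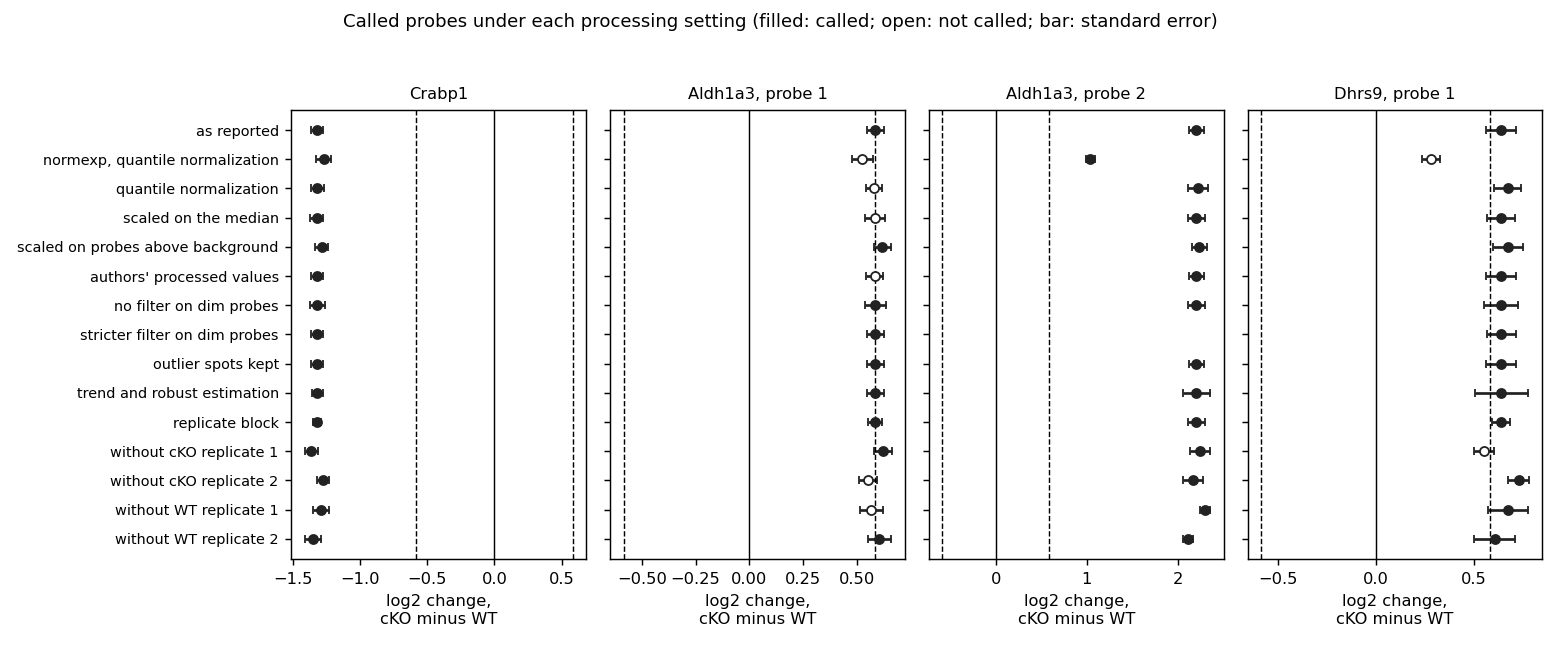
Log2 change (cKO minus WT) with its standard error for the 4 called probes under the reported setting and the alternatives, with filled points called, open points not called and dashed lines at 1.5-fold. Crabp1 stays between -1.36 and -1.27, while Aldh1a3 probe 1 and Dhrs9 cross the 1.5-fold line in some settings. The points of Aldh1a3 probe 2 are fits against WT signals not above background.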

How the data were processed

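Per the file headers, spot intensity was extracted by Agilent Feature Extraction 10.7.3.1 with its background and detrending steps on. That deposited processed intensity was the starting value. The authors' deposited value table, used as an alternative, was found to be the same intensity as a linear ratio to 1 number per array, not centred per gene, with column medians of 0.101 and 0.0983 (cKO) and 0.0987 and 0.101 (WT). No source used here names the tool behind it.

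Control spots and outlier spots were left out, log2 was taken, the array's 75th percentile was subtracted and spots of a probe were averaged. No spot was saturated, and the share of spots well above background ran from 62.1% to 69.1%. Duplicate arrays correlated at 0.996 (cKO) and 0.995 (WT) over probes, and pools at up to 0.969. All arrays shared 1 slide and 1 scan, so neither could be fitted as a batch. Tests used limma 3.58.1 (R 4.3.3) (two-sided, no covariates), tested on simulated data. The number of arrays limits the precision of the comparison between the pools. With 1 pool per group, more arrays would give no estimate of variation from mouse to mouse. Tables used pandas 2.3.3 in Python 3.11.15, data.table (version 1.17.8) and matplotlib 3.10.9. Names came from the scanner files for the 9 genes, and otherwise from a RefSeq table (GRCm38.p6), which matched 26690 probes through accessions, 5189 through symbols and 952 through synonyms, while 8343 kept the file's name.

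The 9 genes and all lists were chosen with earlier results of these data known. Named besides them were the called genes and the 2 brightest of each pathway list, a few fixed pathway genes, Fgf18, Krt5, Krt14 and the 3 genes nearest to Crabp1. Of each marker list up to 3 called genes of largest change were named where the list is used, and any other gene was named after its values were seen. A few results that the rule names are not reported here. Alternatives were other background corrections, normalizations and scalings, the authors' values, other filters, outliers kept, a trend with robust estimation, a replicate block, the mean of probes and leaving out each array.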

Additional observations from a re-analysis of the deposited data

How the results depend on the processing

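Of 433 single results under 14 alternatives, 409 kept their direction and their side of the threshold, 17 lost their call and 7 changed sign. Several alternatives, such as the other filters or a replicate block, leave most log2 changes as they were, and all rest on the same pools. The alternatives were also applied, after the data were seen, to the wider pathway and to the hair shaft and inner root sheath list. Counts of genes in this section rest on the brightest probe of each gene. With normexp and quantile normalization 1519 probes were called, against 2535 as reported, 0 of the 9 genes were higher and 3 pathway genes were lower. By their brightest probes Aldh1a3 and Dhrs9 still had limma adjusted p of 0.0023 and 0.0099 there, under the fold threshold. Aldh1a3 probe 2 was still called higher there (fitted log2 change 1.04), but against WT signals not above background. With quantile normalization, median scaling or the authors' values 1 of the 9 genes was higher, and without 1 array 1 to 2 were. With the stricter filter 9 genes of the hair shaft and inner root sheath list were higher, since that filter removes those dim in WT. The cause of the other shifts was not tested.

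Sign changes touched uncalled genes only. Without 1 array Crabp2 ranged from -0.089 to 0.016 and Rarg probe 4 from -0.038 to 0.095. With normexp and quantile normalization Rxra and Dhrs3 had 0.066 and 0.12, with quantile normalization 0.055 and 0.12, and with scaling on probes above background Dhrs3 had 0.0086. With the replicate number as a block 2449 probes were called and all 31 single results kept their call. Same-numbered arrays shared only a number: their deviations correlated at -0.020. Signals near background, as for Rara and the second probe of Dhrs9, set the limit of what could be measured.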
